A study of Mus musculus with 1376 samples.

Results

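Col28a1-Slc36a2 alveolar fibroblasts are lung cells picked out by 7 transcripts, Col28a1, Pla1a, Upk1b, Scn3a, Slc36a2, Plcxd3 and Slc27a6. A cell was counted as a member when at least 3 of these 7 genes reached 20 CPM (a gene's share of the counts of that cell, in the usual library-scaled unit). Of 1376 cells 7.49% were members, made up of 33 cells of male mouse 1 (M1), 45 of male mouse 2 (M2) and 25 of female mouse 1 (F1). The exact binomial 95% interval, 6.15% to 9.01%, pools the cells and leaves out the spread between mice. The remaining 1273 cells were not members. Lungs came from adult ACTA2GFP:CSPG4dsRED mice, a strain named for a green reporter of smooth muscle actin (Acta2) and a red reporter of the proteoglycan NG2 (Cspg4), and no treatment was compared. Single cells had been sorted into 384-well plates and sequenced by Smart-Seq2, a full-length cDNA method without molecular identifiers. M1 filled plates 045s and 046s, and M2 and F1 filled 1 other plate each. Ages are labelled 8 to 30 weeks, whereas the series text gives 8 to 21 weeks and mentions males only. No source used here states the sort gate, and the extraction text names heart although the tissue label is lung. With 1 female on 1 plate, sex, plate and mouse cannot be told apart.

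Alveolar fibroblasts lie in the walls of the air sacs beside alveolar type 1 and type 2 epithelial cells and capillaries. They build interstitial matrix, secrete growth factors such as FGF10 and WNT2 that act on the epithelium, and in rodents can hold neutral lipid and retinyl esters, for which they have been called lipofibroblasts. Alveolar myofibroblasts, adventitial fibroblasts around vessels and airways, smooth muscle cells and pericytes are the neighbouring mesenchymal types. The 7 genes of the rule came from an earlier grouping of these same cells over all genes. Their own levels are therefore described here with no test, and the p-values of other genes are not free of that choice.

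Members made up 5.05% of the cells of M1 (95% interval 3.50% to 7.02%), 12.8% of M2 (9.48% to 16.7%) and 6.74% of F1 (4.41% to 9.79%). The share was therefore highest in M2, and both plates of M1 held similar shares, with 17 members (4.87%) on 045s and 16 (5.26%) on 046s. An unknown gate set these shares, and they were not tested between mice. Cells with 0 rule genes numbered 1171, followed by 54 with 1 gene, 48 with 2, 38 with 3, 35 with 4, 19 with 5, 9 with 6 and 2 with all 7. Members just inside the limit, with 3 genes, looked different from the 48 cells just outside it in some genes and alike in others. The carboxylesterase gene Ces1d reached 20 CPM in 28 of the 38 cells with 3 rule genes and in 16 of the 48 cells with 2. Pi16, a marker of adventitial fibroblasts, reached it in 1 of 38 against 9 of 48. Pdgfra, the receptor for PDGF-A, reached it in 34 of 38 and 42 of 48, so the cells just outside the rule mostly had fibroblast transcripts too.

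**Figure D1:**
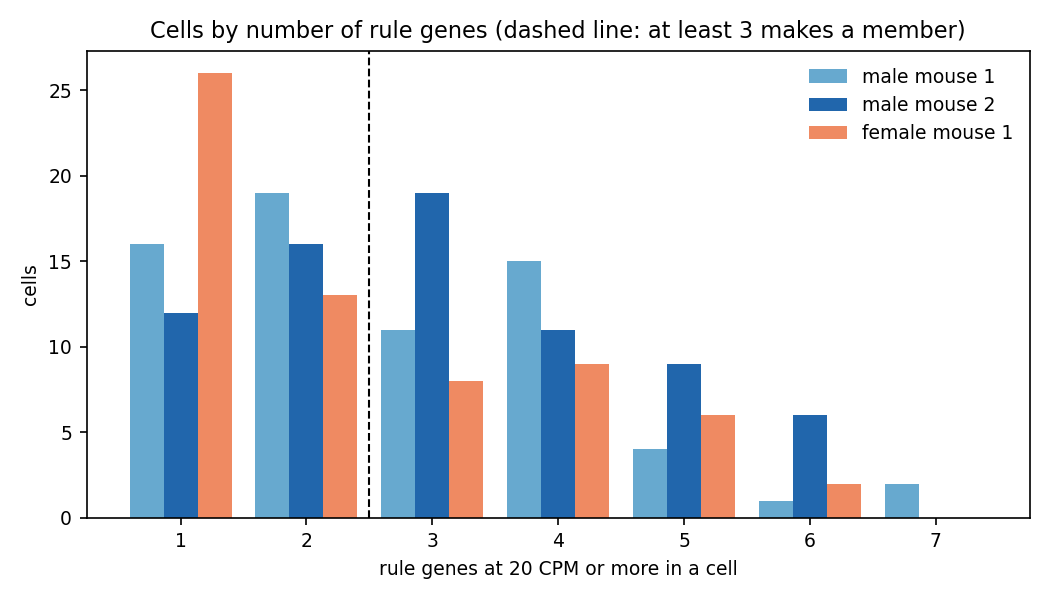
Bars give the number of cells (y axis) that had 1 to 7 rule genes at 20 CPM or more (x axis), by mouse; the 1171 cells with 0 rule genes are not drawn. The dashed line marks the limit of 3 genes, with 48 cells at 2 genes on its left and 38 cells at 3 genes on its right.

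Depth differed between the sets. The median member had 403082, 275190 and 343625 counts in M1, M2 and F1, against 264152.5, 165987 and 230501 in the other cells of the same mice. The median number of genes with a count was 5649, 5390 and 5806 in members against 4230, 4030 and 4640. The mitochondrial share was a little lower in members, at 1.09%, 1.32% and 0.446% against 1.72%, 2.14% and 0.577%. After each cell was thinned to 50000 counts the rule found 8.21% of all cells, among them all but 1 of the members.

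Levels below are CPM of the counts summed over all cells of a set within a mouse, listed in the order M1, M2, F1. Slc36a2 encodes a proton-coupled carrier of small neutral amino acids. Its level in members was 550.8, 430.6 and 533.7 CPM, against 21.6, 43.1 and 48.5 CPM in all other cells. It was the most widely shared rule gene, at 20 CPM or more in 95 members (92.2%). Upk1b, a tetraspanin best known from the urothelial plaque, followed with 261.96, 356.8 and 262.6 CPM against 7.85, 24.05 and 3.24 CPM, and reached 20 CPM in 81 members. Upk1b and Slc36a2 occurred together in 73 members (70.9%).

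The other 5 genes were each found at 20 CPM or more in 40 to 54 members. Col28a1 encodes a collagen with von Willebrand factor A domains, known chiefly from peripheral glia. It had 116.8, 106.7 and 211.01 CPM in members and 4.42, 1.79 and 7.33 CPM in other cells, and was highest in F1. Pla1a, a secreted phospholipase that forms lysophosphatidylserine, had 169.2, 119.4 and 147.4 CPM against 1.58, 8.13 and 4.09 CPM. Plcxd3, which encodes a protein with a phospholipase C X domain, had 147.5, 92.6 and 118.98 CPM against 5.09, 2.65 and 3.10 CPM. Pla1a and Plcxd3 were both highest in M1 and lowest in M2. Scn3a, the sodium channel alpha subunit Nav1.3, had 70.9, 117.6 and 68.6 CPM against 4.52, 14.7 and 3.23 CPM, and the fatty acid transport protein gene Slc27a6 had 24.3, 103.6 and 55.7 CPM against 1.42, 4.36 and 2.03 CPM. Both were highest in M2. For every rule gene the sum over members lay above that over other cells in each mouse, a gap that the rule itself favours. Single cells overlapped. Plcxd3 had no count in 52 members, and Slc36a2 reached 20 CPM in 35 of the 48 cells with 2 rule genes.

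A count of Slc36a2 was found in 95.1% of members and 17.8% of other cells, one of Col28a1 in 54.4% and 4.71%, and one of Slc27a6 in 63.1% and 3.06%. Median depth was higher in members, as given above. The pair overlap was low for several genes: Col28a1 with Scn3a, Pla1a with Plcxd3, and Scn3a with Slc27a6 each met in only 17 members. Each rule gene was also read in cells picked by at least 3 of the other 6, so that it had no part in the choice. Slc36a2 then had 492.7 ± 103.2 CPM (SD, n = 3 mice) in 68 cells against 58.5 in the rest, Upk1b 261.7 ± 71.3 in 80 cells against 24.3, and Col28a1 134.03 ± 63.95 in 89 cells against 8.19. As a ratio Scn3a gave the narrowest gap, with 63.8 ± 15.7 CPM in 86 cells against 12.2. Per kilobase of exonic sequence, which allows levels to be compared between genes, Slc36a2 (155.1 CPM per kb) and Upk1b (140.6) stood highest in members, Pla1a (72.3) lay between, and Scn3a (6.88) was lowest.

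**Figure D2:**
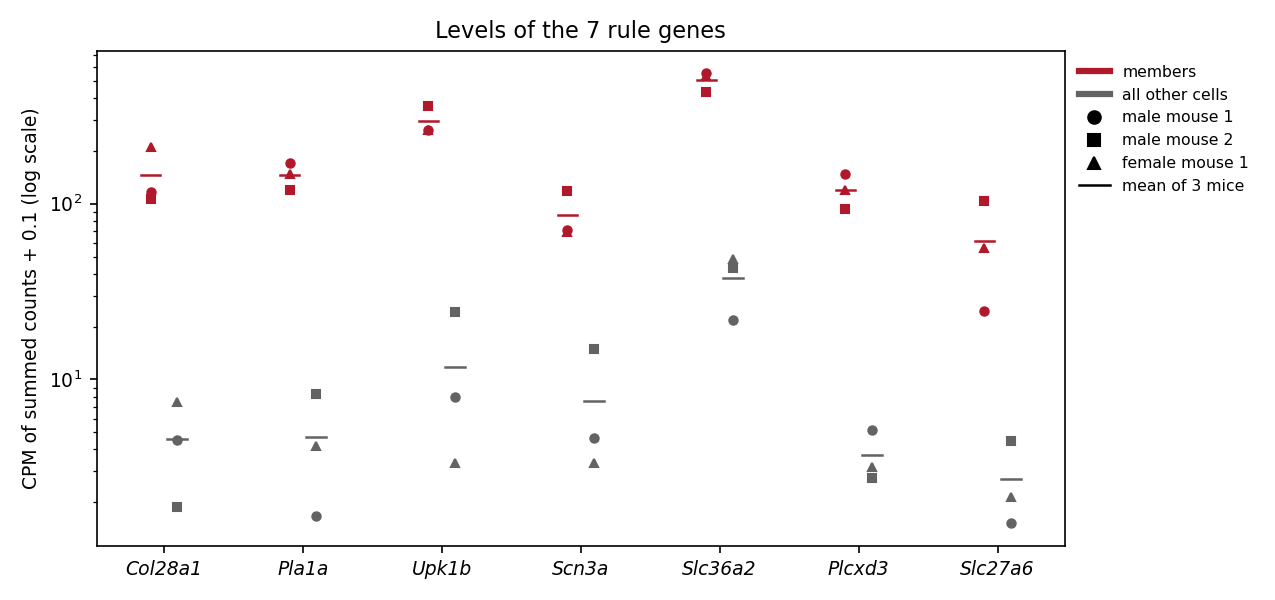
Each symbol is the level of a rule gene in the summed cells of 1 mouse (y axis, CPM + 0.1, log scale), red for members and grey for all other cells, with a line at the mean of 3 mice. Member levels run from 24.3 CPM (Slc27a6, male mouse 1) to 550.8 CPM (Slc36a2, male mouse 1), and every red symbol lies above the grey symbols of its gene.

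The rule genes lie on 7 separate loci of GRCm38, among them Col28a1 at chr6:7997808-8192617 and Slc36a2 at chr11:55158470-55185077. Upstream sequence from RefSeq (GRCm38.p6) was found for 2 of the 7, Col28a1 and Plcxd3, and is shown because members are defined by these transcripts. Upstream sequence of Meox2 and Slit2, both higher in members by the tests below, is shown beside them. It holds a TATA box motif near the start site, on the opposite strand in Meox2. The last pair was chosen after the matches were seen. Each line gives the 250 bases before the annotated start, 5′ to 3′ on the gene's strand, and capitals mark the motif TATAAA on either strand. The windows are chr6:8192618-8192867 (minus strand) for Col28a1, chr15:4375241-4375490 (plus strand) for Plcxd3, chr12:37108290-37108539 (plus strand) for Meox2 and chr5:47982905-47983154 (plus strand) for Slit2.
Col28a1: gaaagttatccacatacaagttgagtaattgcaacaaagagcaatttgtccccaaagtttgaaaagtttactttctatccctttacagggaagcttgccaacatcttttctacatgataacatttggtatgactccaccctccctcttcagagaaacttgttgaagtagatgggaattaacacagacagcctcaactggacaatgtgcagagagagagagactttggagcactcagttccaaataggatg
Plcxd3: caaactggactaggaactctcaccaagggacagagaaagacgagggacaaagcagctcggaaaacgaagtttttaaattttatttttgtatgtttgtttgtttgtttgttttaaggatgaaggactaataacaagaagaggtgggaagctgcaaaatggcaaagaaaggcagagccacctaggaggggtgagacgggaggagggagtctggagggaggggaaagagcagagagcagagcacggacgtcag
Meox2: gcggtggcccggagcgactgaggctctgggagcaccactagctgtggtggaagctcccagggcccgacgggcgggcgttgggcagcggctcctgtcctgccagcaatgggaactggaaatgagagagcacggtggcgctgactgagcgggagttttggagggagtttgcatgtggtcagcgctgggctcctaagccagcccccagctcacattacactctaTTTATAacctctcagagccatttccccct
Slit2: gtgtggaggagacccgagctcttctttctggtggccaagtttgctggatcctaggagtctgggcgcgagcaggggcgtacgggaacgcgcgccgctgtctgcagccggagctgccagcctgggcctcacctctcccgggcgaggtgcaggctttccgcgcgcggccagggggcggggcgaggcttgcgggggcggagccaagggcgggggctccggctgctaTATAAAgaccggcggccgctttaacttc
The capitals begin 29 bases before the start of Meox2 and 28 bases before that of Slit2. In Slit2 they read TATAAA, and in Meox2 TTTATA, which is the motif on the opposite strand. The windows of Col28a1 and Plcxd3 hold the motif on neither strand. Of 32851 RefSeq windows of this length, 12.4% hold it on either strand. A match describes the letters and is not evidence that the site is used.

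Markers of alveolar fibroblasts were present in members. Of all other cells 70.2% had at least 20 CPM of both Myh11 and Cnn1, which are smooth muscle markers. A rise against them is therefore largely a difference from contractile cells and can be shared with other fibroblasts. Against all other cells, edgeR's quasi-likelihood test with the mouse as a block called 878 of 17012 genes at an adjusted p under 0.05 (5.16%), with 2.63% higher and 2.53% lower in members. By unadjusted p under 0.05 the share was 19.8%, and DESeq2 called 16.7%. The median log2 fold change over all genes tested was −0.20. Of 15 alveolar fibroblast markers, 14 were higher and 0 lower, with a median log2 fold change of 2.81. Their summed level was 9093 to 11370.3 CPM in members against 2074 to 3088 CPM in the other cells. Itga8, the integrin subunit that binds nephronectin, was the marker not called, with 498.3, 1099 and 409.03 CPM in members and 562.7, 1058 and 233.4 CPM in others (adjusted p = 0.413).

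Npnt encodes nephronectin, a basement membrane ligand of that integrin. Its level was 1507, 2049 and 1553 CPM in members against 329.1, 469.7 and 367.7 CPM in other cells, higher in each mouse (log2 fold change 2.32, SE 0.12, n = 3, adjusted p = 0.00117). A count was present in 99.03% of members and 82.3% of other cells. Inmt, an indolethylamine N-methyltransferase, was higher still, at 2109, 3252 and 2498 CPM against 239.5, 456.8 and 435.8 CPM (log2 fold change 3.02, SE 0.15, n = 3, adjusted p = 0.00117). Tcf21, a transcription factor of the fibroblast lineage in lung, had 181.03, 227.6 and 286.6 CPM against 45.4, 73.8 and 83.1 CPM (log2 fold change 1.99, SE 0.19, n = 3, adjusted p = 0.00593). Among members, Npnt and Inmt each reached 20 CPM in all but 1 cell, Pdgfra in 95 and Tcf21 in 80. Ces1d reached 20 CPM in 77 members and Wnt2 in 35.

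Adventitial fibroblast markers were not low in members. The 13 markers summed to 8161, 10885 and 10541 CPM, against 4095, 6769 and 8791 CPM in other cells. Of them 2 were higher (Gsn and Cygb) and 2 lower (Scara5 and Pi16), where 2.63% of all genes rose and 2.53% fell. Gsn alone had 5723, 8379 and 6910 CPM in members. Markers of mural cells were lower in members, while those of some other cell types were present at low sums and not in all cases below the other cells. The 7 smooth muscle markers summed to 604.6 to 658.2 CPM in members against 8153 to 14159 CPM in other cells, and all 7 were lower. The 10 pericyte markers summed to 473.1 to 817.5 CPM against 2492 to 4126 CPM, with 9 lower. The 9 endothelial markers summed to 187.7 to 378.3 CPM against 206.4 to 2138 CPM, the 10 macrophage and leukocyte markers to 92.03 to 217.7 CPM against 127.02 to 1957 CPM, and the 7 alveolar type 2 markers to 31.9 to 120.6 CPM against 30.6 to 201.3 CPM. Upk1b is also a mesothelial and Col28a1 a glial marker. Without Upk1b the 6 mesothelial markers summed to 10.7 to 43.6 CPM in members, and without Col28a1 the 6 glial markers to 8.52 to 16.7 CPM, with Sox10 at 0. Other genes with no count in any member were Prox1, Lamp3, Cdh1, Foxj1 and Elavl4. Within a mouse, endothelial sums were higher in members than in other cells of M1 (378.3 against 232.8 CPM) and M2 (229.2 against 206.4 CPM), and alveolar type 2 sums were higher in F1 (120.6 against 89.9 CPM) and slightly so in M2 (31.9 against 30.6 CPM). None of the 9 endothelial markers was called. At 20 CPM or more in at least 2 markers, 19 members carried endothelial, 20 macrophage or leukocyte and 10 alveolar type 2 transcripts, and 7 had both Myh11 and Cnn1. In this order the shares were 18.4%, 19.4%, 9.71% and 6.80% of members, against 26.2%, 16.7%, 7.62% and 70.2% of other cells. The signs overlap to 46 members (44.7%), and 86.1% of other cells had any of them. No doublet caller was run. Without those 46 members 3.29% of the genes tested were called.

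Outside the rule, 20 genes are named for their rise and 10, given with the contractile genes below, for their fall, which was larger on the log2 scale. The 20 genes with the highest fold change under the naming rule were Slc38a5, Nebl, Alcam, Nrcam, Slit2, Ces1d, Col13a1, Lrat, Mmp3, Ptges, Svep1, Sphk1, Cxcl14, Clec11a, Gyg, C7, Plekha6, Gm4956, Vipr2 and Scube2. Slc38a5, a sodium-coupled glutamine carrier, had 430.998, 400.2 and 519.1 CPM in members and 13.6, 40.9 and 50.8 CPM in other cells (log2 fold change 4.05, SE 0.40, n = 3, adjusted p = 0.00643). Nebl, encoding the actin-binding nebulette, had 249.8, 385.5 and 209.9 CPM against 15.2, 39.1 and 11.7 CPM (log2 fold change 4.02, SE 0.27, n = 3, adjusted p = 0.00244). Nrcam, a cell adhesion molecule of the immunoglobulin family, had 287.04, 377.4 and 205.8 CPM against 13.9, 31.7 and 28.2 CPM (log2 fold change 3.79, SE 0.33, n = 3, adjusted p = 0.00469). In each of these 3 genes the lowest member level lay several times above the highest level of the other cells. They were named for their fold change, so such a gap is no added support. Slit2, the secreted ligand of Robo receptors, had 283.2, 307.9 and 337.99 CPM against 11.9, 30.4 and 49.7 CPM (log2 fold change 3.74, SE 0.38, n = 3, adjusted p = 0.00749). Ptges, a prostaglandin E synthase, had 262.5, 328.2 and 627.9 CPM against 16.1, 63.4 and 59.3 CPM (log2 fold change 3.46, SE 0.35, n = 3, adjusted p = 0.00759). Alcam and C7 lost their calls when a mouse was left out (adjusted p of Alcam 0.0524 without M1; of C7 0.0564 without M2).

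Vipr2, the receptor for vasoactive intestinal peptide, Svep1, a large adhesive matrix protein, and Mmp3, the matrix protease stromelysin, also stood among the 20. Mmp3 was the most abundant of them, at 947.8, 735.4 and 829.9 CPM against 47.3, 93.8 and 128.3 CPM (log2 fold change 3.51, SE 0.34, n = 3, adjusted p = 0.00659). Vipr2 had 131.02, 67.9 and 121.8 CPM against 13.4, 7.16 and 24.97 CPM (log2 fold change 3.13, SE 0.33, n = 3, adjusted p = 0.00807), and Svep1 390.8, 350.5 and 624.1 CPM against 22.3, 34.4 and 127.7 CPM (log2 fold change 3.44, SE 0.37, n = 3, adjusted p = 0.00836). Clec11a, a secreted growth factor of the C-type lectin family, rose by 3.22 ± 0.36 (log2 fold change, adjusted p = 0.00938). Sphk1, which makes sphingosine 1-phosphate, rose by 3.28 ± 0.27 (adjusted p = 0.00406). Gyg, the glycogenin that primes glycogen synthesis, reached 1424, 1412 and 889.5 CPM in members against 159.8, 177.9 and 116.7 CPM (log2 fold change 3.21, SE 0.14, n = 3, adjusted p = 0.00117).

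Lipid droplets and retinyl esters are what lipofibroblasts are named for, and a minority of the genes of lipid and retinoid metabolism rose. In the list for lipid uptake, storage and phospholipid signalling, 5 of 34 tested genes rose and 2 fell (median log2 fold change 0.07, all genes −0.20). Over all genes tested against all other cells, 2.63% rose and 2.53% fell. Ces1d, which hydrolyses stored triglyceride, had 765.6, 815.3 and 421.9 CPM in members and 56.3, 80.2 and 41.7 CPM in others (log2 fold change 3.67, SE 0.17, n = 3, adjusted p = 0.00117). Lpl, the lipase that frees fatty acids from lipoproteins, had 636.2, 542.5 and 361.95 CPM against 99.1, 128.2 and 72.7 CPM (log2 fold change 2.55, SE 0.18, n = 3, adjusted p = 0.00271). Plin2, the coat protein of lipid droplets, had 272.6, 394.6 and 351.6 CPM against 119.9, 95.01 and 108.6 CPM (log2 fold change 1.83, SE 0.23, n = 3, adjusted p = 0.0118). Its call ended when 1 mouse was removed (adjusted p = 0.0589 without M2). Adh1, an alcohol dehydrogenase gene, and the fatty acid carrier gene Slc27a3 rose by 2.59 ± 0.18 and 3.04 ± 0.32 (log2, adjusted p = 0.00263 and 0.0082). Pparg, the adipogenic nuclear receptor, averaged only 4.69 ± 6.18 CPM (SD, n = 3) in members and 3.46 ± 2.67 in others and was not called, and Fabp1 had no count in members.

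Among 16 tested genes of retinoid metabolism, 4 rose and 1 fell (median 0.25), where 2.63% of all genes rose and 2.53% fell. Lrat, the acyltransferase that stores retinol as retinyl ester, had 371.9, 614.7 and 277.2 CPM in members and 21.4, 57.2 and 38.7 CPM in other cells (log2 fold change 3.65, SE 0.28, n = 3, adjusted p = 0.00356). Aldh1a1, a retinaldehyde dehydrogenase, had 901.9, 1609 and 759.7 CPM against 154.6, 222.9 and 127.5 CPM (log2 fold change 2.84, SE 0.15, n = 3, adjusted p = 0.00117). Its relative Aldh1a2 went the other way, at 0.292, 0.490 and 1.81 CPM against 121.1, 141.2 and 132.96 CPM (log2 fold change −7.34, SE 0.63, n = 3, adjusted p = 0.00462). Members thus carried one dehydrogenase of the family at a high level and nearly lacked the other. The receptor gene Rarg was called in the full data (adjusted p = 0.0421) and in none of the fits without a mouse (adjusted p = 0.141 without M1, 0.245 without M2 and 0.0912 without F1).

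Where 2.63% of all genes rose and 2.53% fell, 22 other solute carriers, mostly of amino acids, had 4 that rose and 2 that fell (median 0.38). Besides Slc38a5 these were the glutamate carrier Slc1a3 (251.9, 316.1 and 244.04 CPM against 24.4, 59.98 and 61.1 CPM; log2 fold change 2.77, SE 0.30, n = 3, adjusted p = 0.00863), Slc7a10 and Slc43a3. Slc7a10, the carrier known as Asc-1, had 81.1, 64.9 and 40.6 CPM against 4.00, 5.91 and 8.97 CPM (adjusted p = 0.0233), and Slc43a3 rose by 1.82 ± 0.33 (adjusted p = 0.0372). Leaving out a mouse ended both calls (Slc7a10 0.0835 without M1 and 0.116 without M2; Slc43a3 0.0809 without M1 and 0.154 without M2). Members were defined in part by a sodium channel gene, and among 20 other ion channel genes 1 rose (Cacna1d) and 4 fell (median −2.25). Cacna1d, a voltage-gated calcium channel, had 117.3, 82.7 and 150.4 CPM against 9.74, 27.4 and 20.3 CPM (adjusted p = 0.0244), a call that was lost without a mouse (adjusted p = 0.072 without M1 and 0.0995 without F1).

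Signals that act on alveolar epithelium, endothelium or leukocytes were among the genes that rose. In the list of niche growth factors and receptors, 9 of 35 tested genes rose and 4 fell (median 0.58). The shares over all genes were 2.63% and 2.53%. Fgf10, the ligand of the epithelial receptor FGFR2b, had 115.1, 178.9 and 295.9 CPM in members against 12.3, 48.4 and 43.9 CPM in other cells (log2 fold change 2.81, SE 0.32, n = 3, adjusted p = 0.0101). Vegfd, a ligand of VEGF receptors on lymphatic and blood endothelium, had 381.1, 295.9 and 213.7 CPM against 84.4, 67.1 and 53.8 CPM (log2 fold change 2.29, SE 0.17, n = 3, adjusted p = 0.00319). Gdf10, a TGF-beta family member, had 296.03, 289.6 and 731.9 CPM against 33.02, 57.6 and 130.3 CPM (log2 fold change 2.85, SE 0.22, n = 3, adjusted p = 0.00356). Every member level of these 3 genes was above every level of the other cells. How many of all genes tested did the same is not reported here. Of the receptors, Pdgfra had 523.5, 1101 and 848.3 CPM against 64.4, 130.6 and 174.2 CPM (log2 fold change 2.98, SE 0.20, n = 3, adjusted p = 0.00244) and Fgfr3 412.1, 266.7 and 889.01 CPM against 38.4, 61.7 and 255.8 CPM (log2 fold change 2.62, SE 0.33, n = 3, adjusted p = 0.013). Pdgfrb, the mural PDGF receptor, was lower (log2 fold change −0.97 ± 0.14, adjusted p = 0.0196), though not without any 1 mouse (adjusted p = 0.0536 without M1, 0.153 without M2 and 0.0743 without F1). Fgf7, Fgfr4, Igf1 and Igfbp6 were the remaining genes that rose, and the calls of the first 3 ended without a mouse (adjusted p of Fgf7 0.0954 without M1 and 0.0979 without F1; of Fgfr4 0.0593 without M1 and 0.123 without M2; of Igf1 0.102 without M1 and 0.173 without M2).

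Wnt2, a canonical Wnt ligand of lung mesenchyme, had 77.1, 88.4 and 95.9 CPM in members and 3.72, 11.1 and 8.13 CPM in others (log2 fold change 3.83, SE 0.40, n = 3, adjusted p = 0.00802). Only 42 members had a count, against 4.79% of other cells. In the Wnt list 2 of 28 tested genes rose and 5 fell (median −0.73). Beside this list and the Hedgehog and BMP lists below, 2.63% of all genes rose and 2.53% fell. The genes that fell included the receptors Lgr5 (0.292, 1.31 and 5.11 CPM against 31.4, 218.4 and 155.2 CPM; log2 fold change −6.05, SE 0.62, n = 3, adjusted p = 0.00761) and Lgr6 (0.877, 0.572 and 1.81 CPM against 135.3, 187.3 and 160.7 CPM; log2 fold change −7.11, SE 0.48, n = 3, adjusted p = 0.00244), markers of alveolar myofibroblasts and, for Lgr6, of airway smooth muscle. Of 10 Hedgehog genes 1 fell, the ligand-binding inhibitor Hhip, at 200.6, 146.3 and 198.3 CPM against 603.4, 1267 and 1037 CPM (adjusted p = 0.017; 0.0648 without F1). Among 29 BMP and TGF-beta genes 4 rose and 4 fell (median −0.54). Bmper, a BMP-binding regulator, had 41.6, 104.4 and 91.8 CPM in members against 5.65, 14.9 and 9.02 CPM (log2 fold change 3.20, SE 0.33, n = 3, adjusted p = 0.00758).

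Transcription factors of lung mesenchyme moved in both directions: 3 of 37 tested genes rose and 5 fell, where 5.16% of all genes were called (median −0.14). The 3 that rose were Tcf21, Meox2 and Runx1, the last of which was not called in any fit without a mouse (adjusted p = 0.0979 without M1, 0.172 without M2 and 0.121 without F1). Meox2, a homeobox gene, had 332.7, 233.1 and 271.1 CPM in members against 21.5, 39.4 and 66.01 CPM (log2 fold change 3.03, SE 0.39, n = 3, adjusted p = 0.0143). Genes of leukocyte contact moved both ways, since 6 of 30 tested genes rose and 3 fell (median 0.08). Cxcl14, a chemokine made by stromal cells, had 922.4, 1521 and 867.1 CPM against 77.4, 178.01 and 148.9 CPM and was present in every member (log2 fold change 3.26, SE 0.22, n = 3, adjusted p = 0.00244). Vcam1, the adhesion ligand of leukocyte integrins, had 1106, 1482 and 778.4 CPM against 192.3, 180.6 and 129.5 CPM (log2 fold change 2.90, SE 0.17, n = 3, adjusted p = 0.00154). Il34, a ligand of the macrophage receptor CSF1R, had 99.1, 110.5 and 172.1 CPM against 7.57, 19.6 and 34.7 CPM (log2 fold change 3.02, SE 0.36, n = 3, adjusted p = 0.0109).

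In the complement list 8 of 16 tested genes rose and 1 fell (median 1.29), where 2.63% of all genes rose and 2.53% fell. C3, the central component, had 1642, 1913 and 2313 CPM in members and 140.9, 416.3 and 525.9 CPM in other cells (log2 fold change 2.81, SE 0.30, n = 3, adjusted p = 0.00836). The gene that fell, C1qc, is a macrophage marker. Serping1, the C1 inhibitor, and C1s1, C1ra, C2 and C7 were among the other genes that rose. So was C1qtnf7, a C1q and TNF related gene that is on the list but is not itself a complement component. Calls that ended without a mouse were C1qtnf7 (adjusted p = 0.0957 without M1, 0.112 without M2 and 0.0586 without F1), C1ra (0.0542 without M1 and 0.093 without M2), C1s1 (0.0543 without M2), C7 (0.0564 without M2) and C1qc (0.363 without M1). Macrophage and leukocyte markers themselves summed to 92.03 to 217.7 CPM in members, below the other cells of the same mouse in each case. Without members that carried transcripts of another cell type the 3.29% of genes given above were called, and the calls of Fgfr4, Runx1 and Rarg were lost.

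Among matrix genes the collagen and elastic fibre lists had more members that rose than fell, and proteoglycans went both ways. Over all genes tested 2.63% rose and 2.53% fell. Of 27 interstitial collagen genes and their enzymes 13 rose and 1 fell (median 1.04), and of 21 elastic fibre genes 10 rose and 0 fell (median 1.17). Col13a1, a transmembrane collagen, had 188.8, 172.6 and 622.3 CPM against 12.5, 24.05 and 49.7 CPM (log2 fold change 3.66, SE 0.28, n = 3, adjusted p = 0.00334). Lox, which cross-links collagen and elastin, had 307.1, 506.8 and 306.8 CPM against 40.7, 107.2 and 77.1 CPM (log2 fold change 2.57, SE 0.23, n = 3, adjusted p = 0.00488). Collagen I was far more abundant but differed less, with Col1a1 at 3146, 2959 and 5878 CPM against 802.5, 1538 and 3348 CPM (log2 fold change 1.42 ± 0.23, adjusted p = 0.027). Leaving out a mouse ended this call (adjusted p = 0.077 without M2 and 0.0507 without F1), and likewise that of the elastin gene Eln (adjusted p = 0.0107; 0.056 without M2). In basement membrane 7 of 24 tested genes rose and 2 fell (median 0.48). Proteoglycans were split, with 5 that rose and 4 that fell of 16 (median 0.37). Gpc3, a glypican, had 1016, 1044 and 934.8 CPM against 107.01, 219.1 and 297.7 CPM (log2 fold change 2.57, SE 0.31, n = 3, adjusted p = 0.0109), whereas Lum, lumican, had 2.92, 41.4 and 9.80 CPM against 164.2, 669.1 and 109.01 CPM (log2 fold change −4.19, SE 0.51, n = 3, adjusted p = 0.0114) and Aspn, asporin, 28.95, 25.1 and 4.47 CPM against 433.3, 920.8 and 252.5 CPM (log2 fold change −4.76, SE 0.40, n = 3, adjusted p = 0.00454).

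Contractile genes were mostly lower in members. Of 16 tested, 0 rose and 13 fell, at a median log2 fold change of −3.51. Over all genes tested 2.63% rose and 2.53% fell. Myh11, smooth muscle myosin heavy chain, had 15.8, 7.36 and 15.1 CPM in members against 2932, 2604 and 1814 CPM in others (log2 fold change −7.44, SE 0.38, n = 3, adjusted p = 0.00117). A count of Myh11 was still found in 92 members, with a median of 11.3 CPM and no member above 89.3 CPM. Acta2, the gene behind the green reporter, had 519.3, 435.3 and 338.7 CPM against 4464, 6236 and 2716 CPM (log2 fold change −3.13, SE 0.21, n = 3, adjusted p = 0.00244), and reached 20 CPM in every member, with a median of 190.9 CPM. Cspg4, the gene behind the red reporter, had 43.6, 19.9 and 72.6 CPM against 233.4, 222.2 and 273.1 CPM (adjusted p = 0.0197; 0.0679 without M1) and a count in 54 members. Other genes under the naming rule that fell were Kcna5, Itga7, Plin4, Lmod1, P2rx1, Cap2, Cpe, Mcam and Itih4. Of 18 genes of dissociation stress and early response 3 rose and 0 fell (median 0.21), and of 13 cell cycle genes 0 were called.

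Members were next set against 36 cells with at least 20 CPM of both Lgr5 and Pappa2 (8, 17 and 11 per mouse), which carry alveolar myofibroblast transcripts. The same test called 1.08% of 12153 genes, 70 higher (0.576%) and 61 lower (0.502%) in members, with a median over all genes of 0.60. Unadjusted p lay under 0.05 for 10.9%, and DESeq2 called 11.6%, of which 83.5% were higher, against 53.4% in the edgeR test. All comparisons use the same member sums. Of 15 alveolar fibroblast markers 7 were higher and 0 lower, and of 9 tested alveolar myofibroblast markers 1 was higher and 8 lower. Itga8, not called against all cells, separated these sets, with 498.3, 1099 and 409.03 CPM in members against 5.35, 5.86 and 3.96 CPM (log2 fold change 6.76, SE 0.56, n = 3, adjusted p = 0.00066). Npnt, its ligand, had 53.5, 10.3 and 24.1 CPM in Lgr5-Pappa2 cells (log2 fold change 5.96, SE 0.63, n = 3, adjusted p = 0.00263). Tcf21 and Meox2 were close to absent there, at 0.357, 0.469 and 3.30 CPM (log2 fold change 7.75, SE 1.06, n = 3, adjusted p = 0.0102) and 0.357, 0.704 and 2.31 CPM (log2 fold change 8.00, SE 0.97, n = 3, adjusted p = 0.00508).

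Pdgfra, often used as a marker of alveolar myofibroblasts as well, was low in the Lgr5-Pappa2 cells, at 0.714, 2.58 and 5.93 CPM (log2 fold change 8.17, SE 0.63, n = 3, adjusted p = 0.000518). Fgfr3 had 0.714, 0 and 8.24 CPM (log2 fold change 8.39, SE 1.03, n = 3, adjusted p = 0.00529). Lrat had 1.07, 0.938 and 1.32 CPM (log2 fold change 8.32, SE 0.76, n = 3, adjusted p = 0.00106) and Plin2 1.07, 11.5 and 19.1 CPM (log2 fold change 5.40, SE 0.87, n = 3, adjusted p = 0.0247). In the lists behind these 2 genes, 1 of 11 tested retinoid genes was higher and 0 lower, and 2 of 27 tested lipid genes were higher and 1 lower. Over all genes tested between these sets 0.576% were higher and 0.502% lower. The call of Plin2 was lost without the mouse as a block. Lpl was not called between these sets (178.4, 244.7 and 290.1 CPM in Lgr5-Pappa2 cells, adjusted p = 0.476). Slc38a5 had 0.357, 4.46 and 3.63 CPM (log2 fold change 7.43, SE 0.83, n = 3, adjusted p = 0.00352) and Tmem119 1.07, 3.52 and 6.26 CPM against 664.7, 790.7 and 827.02 CPM in members (log2 fold change 7.76, SE 0.61, n = 3, adjusted p = 0.000518). Complement again rose, with 5 of 14 tested genes higher and 0 lower (median 3.54), among them C7 (log2 fold change 7.58, SE 0.66, n = 3, adjusted p = 0.000823).

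Lower in members than in Lgr5-Pappa2 cells were Aspn at 3156, 2994 and 965.8 CPM in the latter (log2 fold change −7.30, SE 0.35, n = 3, adjusted p = 9.67e-05), Tgfbi, a secreted adhesion protein, at 1410.3, 1746 and 1653 CPM (log2 fold change −7.59, SE 0.57, n = 3, adjusted p = 0.000518) and Hhip at 3969, 7344 and 6418 CPM (log2 fold change −5.16, SE 0.27, n = 3, adjusted p = 9.67e-05). Enpp2, or autotaxin, which forms lysophosphatidic acid, had 451.1, 313.9 and 305.9 CPM in members against 3837, 5833 and 2909 CPM (log2 fold change −3.69, SE 0.26, n = 3, adjusted p = 0.000518). Cdh4, Thbs2, Lgr6, Pdlim3, Lum, Ccdc3, Ednrb, Gm26776 and Cyp2e1 were also among the 12 lowest genes. Wnt5a had 123.8, 67.3 and 197.5 CPM in members against 528.004, 1048 and 955.9 CPM (adjusted p = 0.0197; 0.0678 without M1). Of 13 contractile genes 0 rose and 6 fell (median −2.10), among them Acta2 at 1552, 1984 and 1729 CPM (log2 fold change −2.21, SE 0.26, n = 3, adjusted p = 0.00447). Of 25 interstitial collagen genes and their enzymes 1 was called, where 1.08% of all genes tested were. Col1a1 was not called, at 1402, 3720.3 and 5538 CPM in Lgr5-Pappa2 cells (adjusted p = 0.934).

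The second set held 45 cells with at least 20 CPM in at least 2 of Bmp7, Dner and Adh7 (14, 13 and 18 per mouse). Fewer genes were called here, 34 of 12655 (0.269%), with 6 higher (0.0474%) and 28 lower (0.221%) in members and a median of 0.24 over all genes. Unadjusted p lay under 0.05 for 9.51%, and DESeq2 called 7.44%, of which 60.999% were higher in members, against 17.6% in the edgeR test. Of the 6 higher genes, Nebl had the largest fold change, with 249.8, 385.5 and 209.9 CPM in members against 1.39, 1.37 and 0.576 CPM (log2 fold change 7.88, SE 0.48, n = 3, adjusted p = 0.00796). Npnt had 206.3, 557.7 and 161.01 CPM in Bmp7-Dner-Adh7 cells (log2 fold change 2.55, SE 0.29, n = 3, adjusted p = 0.0433), Lpl 75.96, 22.9 and 38.7 CPM (log2 fold change 3.48, SE 0.40, n = 3, adjusted p = 0.0433) and Gyg 210.9, 209.4 and 78.3 CPM (log2 fold change 2.88, SE 0.24, n = 3, adjusted p = 0.0179). Members were above these cells in every mouse for all 4 genes. Nebl kept its call without each mouse in turn, whereas Npnt (adjusted p = 0.204 without M1 and 0.14 without F1), Lpl (0.13 without M1 and 0.14 without F1) and Gyg (0.0623 without M1) did not. The carbonic anhydrase gene Car2, with 169.6, 199.3 and 201.7 CPM in members against 0.697, 1.37 and 1.15 CPM, was also higher (adjusted p = 0.00964; 0.079 without F1).

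Of 11 tested adventitial fibroblast markers 0 were higher and 3 lower in members than in this second set (Pi16, Dcn and Serpinf1). Pi16 had 1.02, 2.45 and 8.84 CPM in members against 1272, 2055 and 2047 CPM (log2 fold change −9.33, SE 0.62, n = 3, adjusted p = 0.00892). Smoc2, a matricellular protein, had 128.2, 162.6 and 105.3 CPM against 2095, 3077 and 1207 CPM (log2 fold change −4.05, SE 0.21, n = 3, adjusted p = 0.00687), and Alpl, tissue-nonspecific alkaline phosphatase, 8.26, 12.8 and 2.66 CPM against 295.3, 912.3 and 674.4 CPM (log2 fold change −6.49, SE 0.62, n = 3, adjusted p = 0.0277). Wif1, a secreted Wnt inhibitor, had 0.439, 0.163 and 1.07 CPM against 610.5, 301.2 and 320.9 CPM (log2 fold change −9.76, SE 0.68, n = 3, adjusted p = 0.00964), and Cpxm2 was lower by −6.20 ± 0.39 (log2, adjusted p = 0.00796). These 5 calls held without each mouse in turn, but with members taken at 2 rule genes Pi16, Alpl and Cpxm2 were not called. Decorin, Dcn, had 548.6, 730.8 and 566.9 CPM against 3919.8, 4505 and 2231 CPM (adjusted p = 0.0171; 0.0604 without M1). Tcf21 and Pdgfra overlapped between the sets, with 195.4, 313.5 and 230.7 CPM and 952.2, 885.3 and 858.7 CPM in Bmp7-Dner-Adh7 cells, and were not called (adjusted p = 0.912 and 0.859). Wnt2 had 0.232, 1.02 and 0.432 CPM there and 0, 0.235 and 0 CPM in Lgr5-Pappa2 cells, and its difference from members was not called against either set (adjusted p = 0.061 and 0.0651), although DESeq2 called both. Of 15 alveolar fibroblast markers 1 was higher, Npnt, and of 16 proteoglycan genes 0 rose and 2 fell. Among 11 tested retinoid genes 0 rose and 1 fell, Rbp4 (median 0.02, all genes 0.24). Neither Lrat nor Aldh1a1 was thus called against this set. Interstitial collagen, elastic fibre, growth factor, complement and contractile lists had 0 called genes between these sets, where 0.269% of all genes tested were called. At that share a list of this size can hold 0 calls, so likeness of these lists is not shown.

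**Figure D3:**
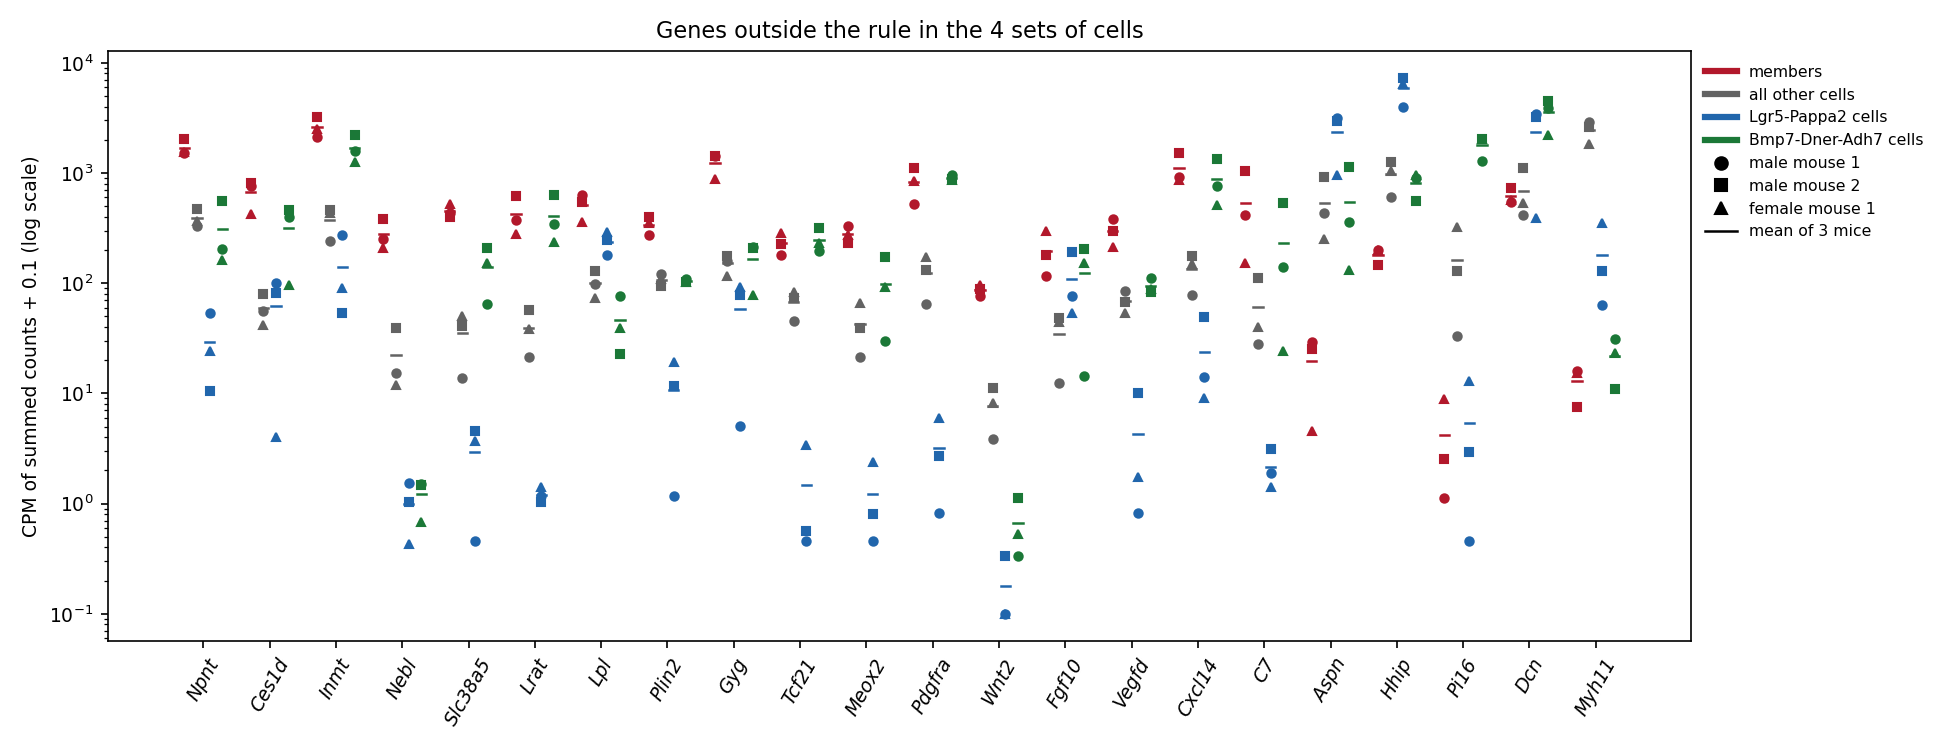
Each symbol is the level of a gene in the summed cells of 1 mouse (y axis, CPM + 0.1, log scale) in members (red), all other cells (grey), Lgr5-Pappa2 cells (blue) and Bmp7-Dner-Adh7 cells (green), with a line at the mean of 3 mice. Nebl and Wnt2 lie higher in red than in blue and green (Wnt2 was not called against those sets), Tcf21 and Pdgfra overlap between red and green and are low in blue, and Aspn and Hhip are highest in blue.

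**Figure D4:**
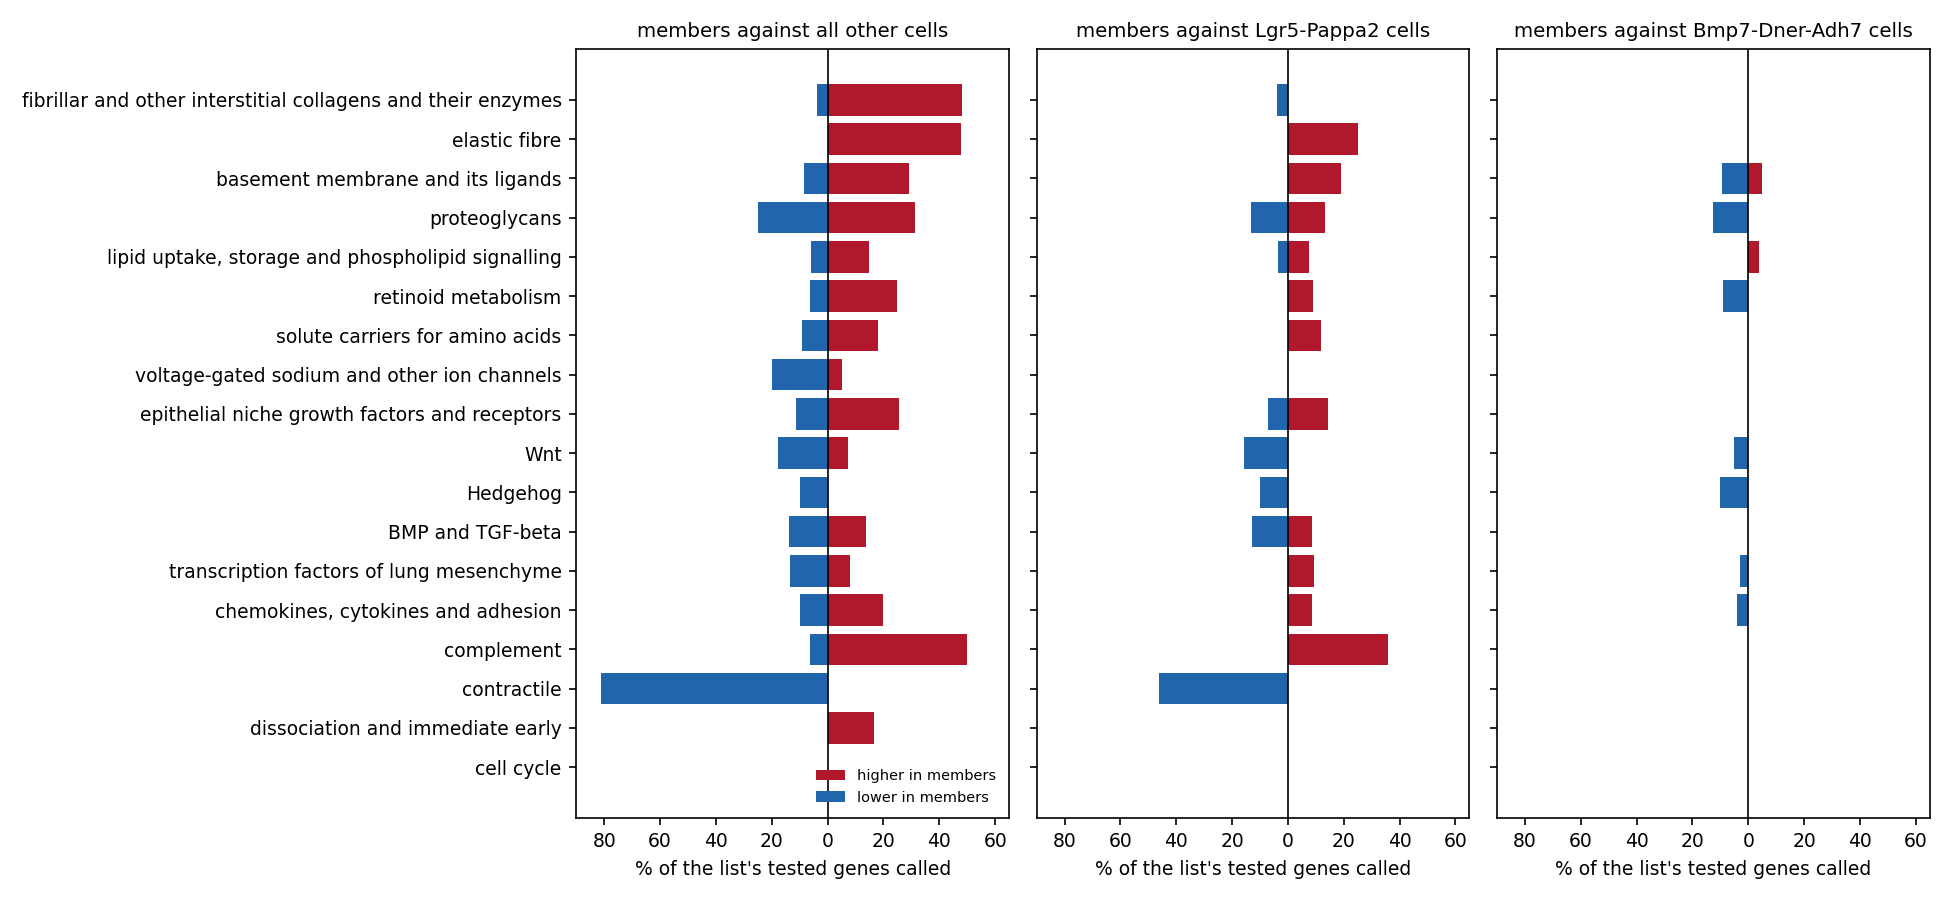
Bars give the percentage of each list's tested genes (x axis) that were called higher (red, right) or lower (blue, left) in members, for 18 gene lists (y axis) and 3 comparisons. Contractile genes fell in 13 of 16 against all other cells and 6 of 13 against Lgr5-Pappa2 cells, while the right panel has few bars.

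Members also varied among themselves. Npnt ran from 0 to 6916 CPM over single members, with a median of 1519.9 CPM, and Cxcl14 from 2.66 to 5215 CPM with a median of 1008. Lrat, Ces1d, Slc38a5 and Col13a1 had no count in 24, 16, 16 and 21 members. Col13a1 differed by mouse, with a median over members of 166.4, 56.7 and 552.3 CPM in M1, M2 and F1. C7 was uneven between mice too, at 411.4, 1039.8 and 152.2 CPM. Within M1, the sums of plates 045s and 046s gave 832.1 and 713.03 CPM of Ces1d, 1737 and 1325 CPM of Npnt and 465.4 and 403.9 CPM of Slc38a5. Slc27a6 was less even, at 37.5 and 13.9 CPM. These plates hold 17 and 16 members, and no test was made between plates or mice.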

How the data were processed

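Single-cell Smart-Seq2 data of 1376 lung cells were used as deposited, 653 from M1, 352 from M2 and 371 from F1. The authors deposited unnormalized whole-number read counts per Ensembl gene and cell. Tools listed by the submitters' processing notes are featureCounts (Subread), Bowtie, Bowtie2 and bcl2fastq, with GRCm38 (mm10) as build and no roles. How strand and multi-mapping reads were treated is not stated, so overlapping or antisense genes and close paralogs are uncertain. A cell held 50835 to 1074103 counts (median 230688). Reads carry no molecular identifiers. The intervals are binomial on numbers of cells, treat cells as independent, and leave out the spread between mice. Of 46517 genes, 46005 took a symbol from GENCODE M21 (GRCm38), and the 512 without one held 0.184% of counts. The rule found 103 members. No cell was removed, and no doublet caller was run.

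Counts were summed per mouse over members and over each comparison set, with at least 5 cells per mouse. The mouse was the replicate, with 3 per set. Genes were tested with edgeR 4.0.16 (TMM, filterByExpr, glmQLFit and glmQLFTest, mouse as a block, two-sided) under R 4.3.3. Benjamini-Hochberg adjustment ran over all genes tested except those that chose the cells, with calls at 0.05. This called 448 genes higher and 430 lower against all other cells, 131 genes in all against Lgr5-Pappa2 cells and 34 against Bmp7-Dner-Adh7 cells. A standard error is the fold change on the log2 scale over the root of the F statistic. Members, gene lists and markers were chosen with earlier results of these data known.

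The genes named were the rule genes, the 20 highest and 10 lowest called genes against all other cells and up to 12 each way against the other sets (at least 50 CPM in each mouse, and a count in 50% of cells, of the higher set, 30% where that is all other cells; the same direction in each mouse), and genes of the lists that were called or among the 4 most abundant; only part of the last are described, and some genes are not reported here. Pparg, Fabp1, Wnt2, Lpl, Col1a1, Tcf21 and Pdgfra are given for some comparisons in which they were not called, chosen after their values were seen. The gene test was tested on simulated data. P-values rest on how much the difference between sets varied over these 3 mice, with that spread estimated in part from other genes. Alternatives were DESeq2 1.42.0, other scaling, filters, member limits, thinned counts, no block, and each mouse left out. Figures were drawn with matplotlib 3.10.9.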

Additional observations from a re-analysis of the deposited data

How the results depend on the processing

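No called gene named above turned its direction, but the share of tested genes that were called moved with the processing. Against all other cells it was 5.16%, against 16.7% with DESeq2, 3.29% without members that carry transcripts of another cell type, and 1.61% to 3.15% when 1 mouse was left out (lowest without M2). Against Lgr5-Pappa2 cells 1.08% became 11.6% with DESeq2, 1.15% of a larger number of genes with no filter on low counts, and 0.624% to 0.987% without a mouse (lowest without M1). Against Bmp7-Dner-Adh7 cells 0.269% became 7.44% with DESeq2, 0.641% with no filter, 0.693% with thinned cells, 0.149% without members that carry other transcripts, and 0.116% to 0.263% without a mouse (lowest without F1). The cause was not tested, except that leaving out a mouse leaves fewer sums.

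Without the replicate block for the mouse, which pairs sums of the same animal, the 3 shares were 4.36%, 0.954% and 0.403%. Against all other cells 58.9% of the 878 calls remained without it, and 28.98% of its calls were higher in members, against 51.03% with it. The same share was 43.4% with DESeq2 there, and rose with DESeq2 from 53.4% to 83.5% against Lgr5-Pappa2 cells and from 17.6% to 60.999% against Bmp7-Dner-Adh7 cells. RLE scaling gave 5.12%, 0.987% and 0.245% and moved the median log2 fold change against Lgr5-Pappa2 cells from 0.60 to 0.47. Without the block 14 genes named above lost their call against all other cells (among them Col1a1, Eln, Fgfr3, Slc27a3 and Lum), 4 against Lgr5-Pappa2 cells (Ccdc3, Gm26776, Fgfr3 and Plin2) and 1 against Bmp7-Dner-Adh7 cells (Npnt). With members taken at 2 rule genes Slc27a3, Aldh1a2, Rarg, Lgr6 and Lum lost it against all other cells, and at 4 rule genes Wnt2 and Bmper did, with 6 others. Values that turned were not called: Col1a1 against Lgr5-Pappa2 cells ran from −0.10 (without M1) to 0.41, and Pdgfra against Bmp7-Dner-Adh7 cells from −0.56 to 0.049 (without M1). At least 2 rule genes gave shares of 7.96%, 17.3% and 10.2% in the 3 mice. At least 4 gave 65 members (3.37% and 7.39% in the males). Members numbered 58 to 78 without 1 mouse, fewest without M2. Set against other cells with 0 rule genes only, an alternative added after seeing the data, 5.70% of genes were called. Many differences, including large ones, were missed by the test in simulated data. What limits the calls was not tested. Counts were simulated with known log2 fold changes for some genes. A rise of 2 was called in 48% of such genes against all other cells, 4% against Lgr5-Pappa2 cells and 20% against Bmp7-Dner-Adh7 cells. For a rise of 3 the shares were 74%, 36% and 50%, and for a fall of 2 they were 26.1%, 0% and 4.55%. A gene not called is therefore not shown to be alike between sets.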
